A study of Mus musculus with 6 samples.

Results

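A set of 1718 open-chromatin regions inside protein-coding genes, found in Utx-knockout and not in wild-type bone marrow progenitors, is described here. The assay was ATAC-seq, which marks accessible DNA by where a transposase can cut and tag it. The members were selected on the peak calls themselves: a member had a peak in all 3 knockout samples and in no wild-type sample, overlapped the span of a protein-coding gene, and lay more than 1 kb from every protein-coding gene end. They were 1718 of 75961 regions made by merging the peaks of 6 samples, and 48.2% of the 3566 regions that were gained by that peak pattern. Because the pattern of peaks chose the members, the difference between genotypes at these regions is a description and carries no test.

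Cells came from C57BL/6 bone marrow after lineage depletion, with 3 samples labelled UTX_WT and 3 labelled UTX_KO. Lineage depletion removes most mature blood cells and enriches stem and progenitor cells. The labels do not state the allele, any Cre driver, age or sex, nor whether each sample was 1 animal. The wild-type lists held 57405 to 57917 peaks and the knockout lists 44576 to 50249. Read depth is unknown, and a region without a peak is one where none was called, not one shown to be closed. Among 23 stem and progenitor marker genes, each sample had a peak in or within 1 kb of 20 to 21 in wild type and 17 in each knockout sample, and Tek, Slamf1, Procr and Prdm16 had one in wild type and none in any knockout sample.

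UTX, encoded by Kdm6a, removes methyl groups from lysine 27 of histone H3 and works with the KMT2C and KMT2D methyltransferases at enhancers. Enhancers are short stretches of DNA that transcription factors keep accessible, and many lie within the introns of the gene they act on or of a neighbour. An accessible region inside a gene may also be the start of a shorter transcript of that gene. The annotation used gives gene spans and start sites without exons, so exons and introns were not told apart.

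Of the 1718 members, 31 (1.80%) overlapped a RefSeq promoter window, the 300 bases from 250 before to 50 after an annotated transcript start, and 23 (1.34%) held the start itself. Among the 4638 regions inside genes with the opposite pattern, called lost, 80 (1.72%) overlapped such a window. Among the 11376 with a peak in all 6 samples the count was 1128 (9.92%). In 21 of the 31 members the start belonged to the host gene, and in the other 10 it belonged to long non-coding RNA genes alone. The sequences shown are the 250 bases before the start, on the transcript strand, for the 5 widest members that contain a whole window of their own host gene. This choice was made after the values were seen. Capitals mark matches on either strand to AGGAAG, a short core bound by ETS factors, AGATAA or TGATAA, forms of the GATA motif, or ATGCAAAT, the octamer bound by POU factors. The sequences are from RefSeq, build GRCm38.p6.
Ank2: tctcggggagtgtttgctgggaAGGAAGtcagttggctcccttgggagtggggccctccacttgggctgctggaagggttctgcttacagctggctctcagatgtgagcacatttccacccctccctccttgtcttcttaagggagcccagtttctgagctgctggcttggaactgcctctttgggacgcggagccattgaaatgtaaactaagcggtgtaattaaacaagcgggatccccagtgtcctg
Fam78a: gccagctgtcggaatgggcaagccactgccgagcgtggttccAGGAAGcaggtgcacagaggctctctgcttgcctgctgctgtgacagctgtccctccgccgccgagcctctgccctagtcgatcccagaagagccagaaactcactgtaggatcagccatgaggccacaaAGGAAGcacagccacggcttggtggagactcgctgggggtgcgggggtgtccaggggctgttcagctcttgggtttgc
Hdac9: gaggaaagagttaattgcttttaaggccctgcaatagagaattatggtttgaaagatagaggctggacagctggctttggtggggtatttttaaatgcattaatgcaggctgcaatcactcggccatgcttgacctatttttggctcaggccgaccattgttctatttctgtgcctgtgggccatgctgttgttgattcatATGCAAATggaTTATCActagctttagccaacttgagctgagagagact
Nhsl1: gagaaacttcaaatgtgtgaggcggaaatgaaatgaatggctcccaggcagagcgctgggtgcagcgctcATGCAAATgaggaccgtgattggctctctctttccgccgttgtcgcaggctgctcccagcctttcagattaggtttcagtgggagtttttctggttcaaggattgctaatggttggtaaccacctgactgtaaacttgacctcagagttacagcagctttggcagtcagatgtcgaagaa
Apbb1: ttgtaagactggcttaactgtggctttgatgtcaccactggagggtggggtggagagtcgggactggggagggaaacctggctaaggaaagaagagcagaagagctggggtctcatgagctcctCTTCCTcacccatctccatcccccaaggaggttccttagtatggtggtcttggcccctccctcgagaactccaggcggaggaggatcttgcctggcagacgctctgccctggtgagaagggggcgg

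Ank2, encoding ankyrin-B, which anchors membrane proteins to the cytoskeleton, has the stretch shown at chr3:126998453-126998702 on the minus strand. That stretch lies inside a member of 898, 876 and 1335 bp in knockout samples 1, 2 and 3. Fam78a has its stretch at chr2:32064912-32065161 (minus), in a member of 426, 960 and 788 bp. Hdac9, a class IIa histone deacetylase, has it at chr12:34528890-34529139 (minus), in a member of 634, 718 and 779 bp. Nhsl1 has it at chr10:18469731-18469980 (plus), in a member of 643, 789 and 638 bp. Apbb1, an adaptor of the amyloid precursor protein, has it at chr7:105568778-105569027 (minus), in a member of 471, 587 and 601 bp. The Fam78a stretch holds 2 matches to AGGAAG, the Ank2 and Apbb1 stretches 1 each, the Hdac9 stretch 1 match to TGATAA, and the Hdac9 and Nhsl1 stretches 1 octamer each.

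The remaining host genes with a start of their own in or beside a member were Gpr12, Satb1, Tnfrsf19, Rcan2, Fgf13, Cd36, Pcdh9, Dixdc1, Plxnb1, Ltbp4, E330021D16Rik, Prdm8, Abcg2, Bcl2l1, Phactr1 and Cdkl4. Satb1, a chromatin organiser of lymphoid progenitors, had a member of 458, 846 and 568 bp over an internal start at chr17:51811306-51812151. Cd36, a fatty acid receptor, had one of 470, 535 and 455 bp at chr5:17835551-17836094.

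The 38 promoter windows that overlapped a member were searched on both strands for 21 motifs, beside all 32851 windows of the same length. AGGAAG was in 28.9% of the 38 and in 35.4% of all windows, AGATAA in 5.26% and 11.2%, and TGATAA in 2.63% and 9.05%. The EBF1 motif CCCNNGGG was in 28.9% and 13.7%, and the E-boxes CAGCTG and CAGGTG, bound by basic helix-loop-helix factors, in 28.9% and 16.3% and in 26.3% and 20.2%. The octamer was in 5.26% and 1.74%, and the RUNX motif TGTGGT in 10.5% and 16.8%. For the SP/KLF motif GGGCGG the shares were 28.9% and 35.7%, for TGGAAA (NFAT) 23.7% and 21.4%, for TTGCNNAA (C/EBP) 10.5% and 10.8%, and for TGTTTAC (FOXO) 7.89% and 3.65%. The AP-1 letters TGAGTCA and TGACTCA, which are each other's reverse complement, were in 2.63% and 5.20%. No member window held CCGGAAGT (ETS, 3.89% of all windows), GAGGAAGT (PU.1, which contains AGGAAG, 3.20%), CTTTGAA (TCF/LEF, 5.14%) or the longer IRF (3.44%), CTCF (2.41%), NF-kB (1.47%) and MEF2 (0.110%) motifs. With 38 windows, some overlapping each other, 1 window is 2.63%, and these shares are descriptions of the letters alone. Whole windows lay in only 12 of the 31 members, so a match can lie outside the member. All windows together include those at protein-coding gene ends, which the rule keeps out of the members, so the sets compared are unlike.

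Regions inside genes and away from their ends numbered 34959, and the members were 4.91% of them (95% Clopper-Pearson interval 4.69 to 5.15, which covers counting over regions only). The same pattern held for 4.69% of all consensus regions, for 5.92% of the 26824 regions between genes and for 1.83% of the 14178 at gene ends. Lost regions were 13.3% of those inside genes, 4638 called in each of the 3 wild-type samples and in none of the knockout samples, against the 1718 members. The wild-type lists were the longer ones, and with lists cut to the same length by peak width the shares were 7.72% gained and 9.55% lost. Just outside the rule lay 455 regions with a peak in all 3 knockout samples and exactly 1 wild-type sample, and 1020 with a peak in exactly 2 knockout samples and no wild-type sample. Of the 1020, 735 lacked a peak in knockout sample 1 alone, 195 in sample 3 and 90 in sample 2. The 455 were spread over the wild-type samples, with 151, 170 and 134 in samples 1, 2 and 3.

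**Figure D1:**
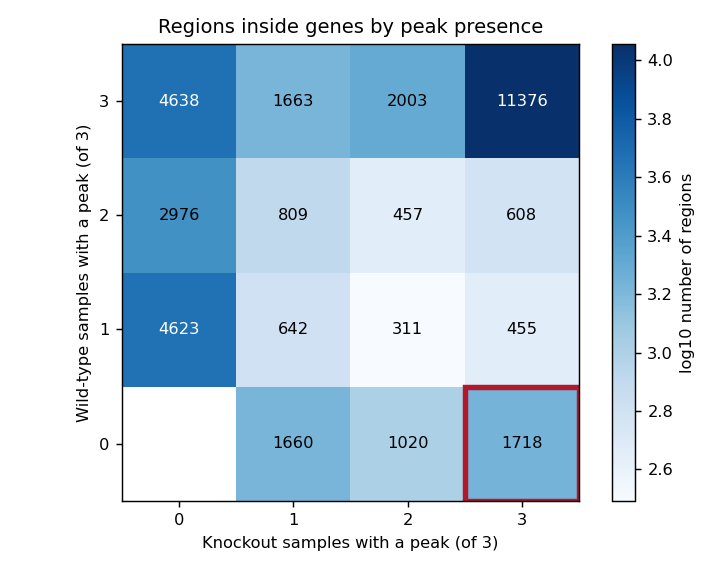
Number of regions inside genes by how many of 3 wild-type samples (vertical axis) and 3 knockout samples (horizontal axis) had a peak there, with colour on a log10 scale. The outlined cell holds the 1718 members, beside 11376 regions found in all 6 samples and 4638 found in each wild-type sample and none of the knockout samples.

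Over all peaks, 44.7% ± 0.451 (SD, n = 3) of wild-type and 40.7% ± 0.594 (n = 3) of knockout peaks lay inside genes away from ends, a knockout minus wild-type difference of -4.00 percentage points. Leaving out peaks in the members, which removes peaks from knockout samples alone, gave 38.4% ± 0.761 in knockout and a difference of -6.29. With the lost regions inside genes left out as well, the shares were 39.8% ± 0.528 and 38.4% ± 0.761, a difference of -1.40. Every knockout sample was below every wild-type sample in each version. Over all peaks the two-sided exact permutation p was 0.1, the smallest that 3 samples against 3 allow, so this design cannot reach 0.05. The versions with regions left out also gave 0.1 by this test. Those regions were chosen by the genotype labels and not chosen again for each split, so that p is no test of them. Member peaks were 3.84%, 3.44% and 3.88% of the peaks of knockout samples 1, 2 and 3.

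Members were of moderate width. The lists carry no score, so the width of a peak is the only size they give. Median peak widths at the members were 337, 419.5 and 420 bp in knockout samples 1, 2 and 3, a mean of 392 ± 47.8 bp (SD, n = 3). Knockout sample 1 was the narrowest, and it held the widest peak of only 192 members against 731 and 795 in samples 2 and 3. Gained regions between genes had medians of 344, 422 and 425.5 bp and those at gene ends 338.5, 422.5 and 420 bp, within the spread between the samples. In regions inside genes with a peak in all 6 samples the knockout medians were 444, 476 and 433 bp. Across the 1718 members, widths in pairs of knockout samples had Spearman correlations of 0.735 (1 and 2), 0.663 (1 and 3) and 0.803 (2 and 3), as a description across regions called in the same libraries. The widest of the 3 peaks exceeded the narrowest by at most 1.5 times in 1146 members (66.7%) and by more than 2 times in 169 (9.84%). A mean width of at least 500 bp was reached by 455 members (26.5%) and of at least 1000 bp by 45 (2.62%).

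The widest member lay inside Otub2, a deubiquitinase gene, at chr12:103396760-103398509, with peaks of 1589, 1715 and 1742 bp (mean 1682 ± 81.7 bp, SD, n = 3). The nearest wild-type peak was 2483 bp away. Next was a region of 1149, 1599 and 1746 bp in Hmgcll1, an enzyme gene of ketone body synthesis, at chr9:76023312-76025195. A region in Sema5a, a semaphorin of axon guidance, at chr15:32265279-32266783, had the most even widths of these, at 1477, 1467 and 1427 bp, and the nearest wild-type peak was 61765 bp away. In Clasp1, whose product binds microtubule ends, the widths at chr1:118453421-118455260 were 1128, 1277 and 1840 bp, so this rank leans on knockout sample 3.

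Mctp1, a calcium-binding membrane protein gene, held a region of 1088, 1639 and 1435 bp at chr13:76809283-76810974, 222310 bp from the nearest gene end. In Spon1, encoding a matrix protein, the widths were 1312, 1466 and 1309 bp (chr7:113783316-113784781). Dzip1, a cilium gene, had 1249, 1301 and 1503 bp (chr14:118878953-118880529). These 3 regions were more than 1 kb wide in every knockout sample. Ltbp1, which holds latent TGF-beta in the matrix, had 1222, 1290 and 1390 bp at chr17:75107355-75108744. Gclc, the catalytic subunit of the first step of glutathione synthesis, had 870, 1328 and 1594 bp at chr9:77782087-77783696, with sample 1 well below the other two.

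**Figure D2:**
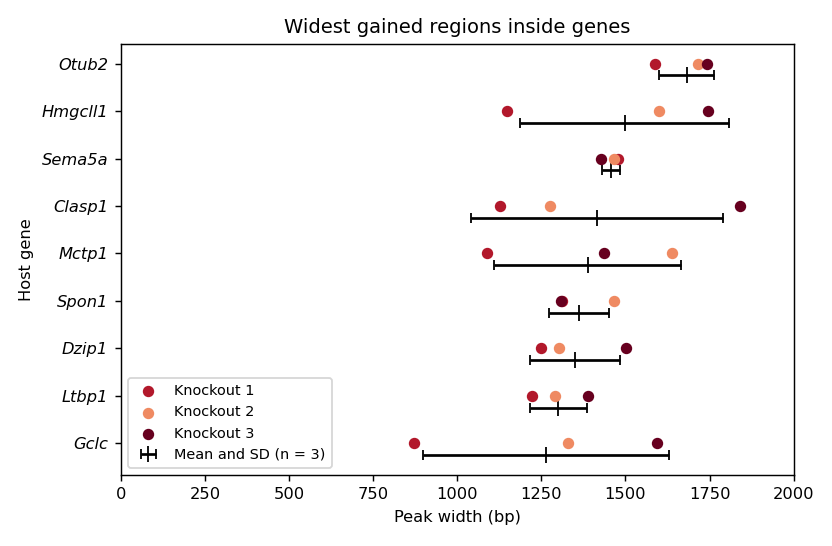
Peak width in bp (horizontal axis) in knockout samples 1, 2 and 3 for 9 of the 10 members with the largest mean width, by host gene; black bars are the mean and SD (n = 3). Otub2 leads at 1682 ± 81.7 bp, and Sema5a has the closest samples.

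At the 1 kb limit, the nearest members inside it were in Ebf1 (1004 bp from its end, chr11:44619104-44619582), Plcxd1 (1006 bp) and Ppp1r13b (1011 bp). The nearest gained regions left out were in C4bp and Maged1 (989 bp each) and Ltk (976 bp). Mean widths were 334, 448 and 380 bp for the first 3 and 393, 685 and 268 bp for the others. In all, 96 members lay within 2 kb of a gene end, and 210 gained regions that overlapped a gene were left out by the limit.

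Members lay deep in long genes. Their median distance to a gene end was 22.6 kb, against 16.5 kb for lost regions inside genes and 15.4 kb for regions shared by all 6. The median length of the host gene, the longest where spans overlap, was 122 kb for members, 88.0 kb for lost and 89.3 kb for shared regions. In genes under 20 kb, 104 of 3497 regions inside were members (2.97%) and 441 lost (12.6%). In genes of 500 kb or more, 151 of 2005 were members (7.53%) and 234 lost (11.7%). Over the 6 length classes in order the share of members went from 2.97% to 7.53%, higher in each class than in the one before, whereas the lost share went from 12.6% to 14.2% in genes of 50 to 100 kb and back to 11.7%. By distance, 3.90% of regions 1 to 2 kb from a gene end and 7.54% of those 100 kb or more away were members. These shares are over regions and have no test.

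Along the gene, members were spread evenly. Among the 1340 members in exactly 1 gene of known strand, the median lay 48.2% of the way from the 5′ to the 3′ end, with 349 (26.0%) in the first 25% of the gene and 321 (24.0%) in the last 25%. Lost regions had a median of 45.6% and shared regions 42.5%, with 30.5% of the shared regions in the first 25% and 19.4% in the last 25%. Non-coding genes had an end within 1 kb of 68 members (3.96%), against 4.08% of lost and 5.75% of shared regions. Of 1005 microRNA hairpins, 1 overlapped a member, Mir139 in Pde2a (chr7:101475376-101475443). There is no count for other regions to set beside it.

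The nearest wild-type peak was 5497 bp from a member at the median, with 256 members (14.9%) within 1 kb of one and 1103 (64.2%) within 10 kb. The nearest region shared by all 6 samples was 11305 bp away at the median. Of the members, 300 (17.5%) had another within 5 kb, in 140 runs. The run with the most members held 5 within 10339 bp of Camk2d (chr3:126803639-126813977). Runs of 4 lay in Phf2, Nsmce2, Sgms1 and Tmem164. Chromosomes differed from 3.82% of regions inside genes on chromosome 8 to 6.81% on chromosome 13, and chromosome X had 26 of 642 (4.05%).

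Foxp1, Edil3 and Hdac9 held the most members. The members lay in 1214 of 9311 protein-coding genes with any region inside, 899 of them with 1 member and 315 with 2 or more. Another 14 members fell in more than 1 gene span, 1 of them in 22 overlapping spans of the gamma protocadherin cluster on chromosome 18. The host genes had a median length of 94.5 kb, against 35.1 kb for other genes with a region inside. A gene with more regions more easily holds at least 1 member, so these medians do not compare like with like. Counted per region, the median host gene length was 122 kb for members and 92.1 kb for all regions inside genes. A lost region lay in 457 of the host genes as well, 757 had none, and in 134 every region inside was a member. Matching counts over all 9311 genes are not given, so these are not read as many or few.

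Foxp1 (chr6:98925342-99522746, minus strand), a forkhead factor needed early in B cell development, held 12 members among 78 regions, with 1 lost and 29 shared by all 6 samples. Its widest pair measured 882, 1194 and 1071 bp (chr6:99336070-99337263) and 549, 1127 and 1234 bp (chr6:99337704-99338937), 186 and 184 kb from the 5′ end. The other 10 had mean widths of 235 to 499 bp, and 6 of the 12 lay between 469 and 541 kb from the 5′ end. Hdac9 (chr12:34047580-34917095), a class IIa deacetylase that represses MEF2 targets, held 9 of 29, with 3 lost and 4 shared. Its widest member, shown by sequence above, and its neighbour of 591, 606 and 548 bp (chr12:34527356-34528044) lay 388 and 389 kb from the 5′ end.

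Edil3 (chr13:88821472-89323225), encoding an integrin ligand of the matrix, held 9 members among only 12 regions, with 1 lost and 1 shared. Their mean widths ran from 250 to 709 bp. Vps8, a subunit of the endosomal CORVET tether, held 8 of 17, the widest with 1002, 1179 and 909 bp (chr16:21563347-21564539). In these 2 genes nearly all regions were outside the shared set, which held 1 region in each.

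Tmem108, a neuronal membrane protein gene, held 8 of 28 and no lost region, the widest with 916, 942 and 1053 bp (chr9:103488544-103489604). Camk2d, the delta chain of calcium/calmodulin kinase II, held 8 of 32 with 1 lost, among them 2 neighbours of 749, 1065 and 1092 bp and of 836, 1052 and 962 bp in the run described above. Elmo1, which activates Rac with DOCK proteins, held 7 of 42, with 4 lost. Its 4 lost regions lay between 41.3 and 73.3 kb from the 5′ end, and 4 of its members between 427 and 448 kb. Prep, a prolyl peptidase gene, held 6 of 13, Ttc7b, part of a phosphatidylinositol kinase complex, 6 of 18, and Nsmce2, a SUMO ligase of the SMC5/6 complex, 6 of 20.

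**Figure D3:**
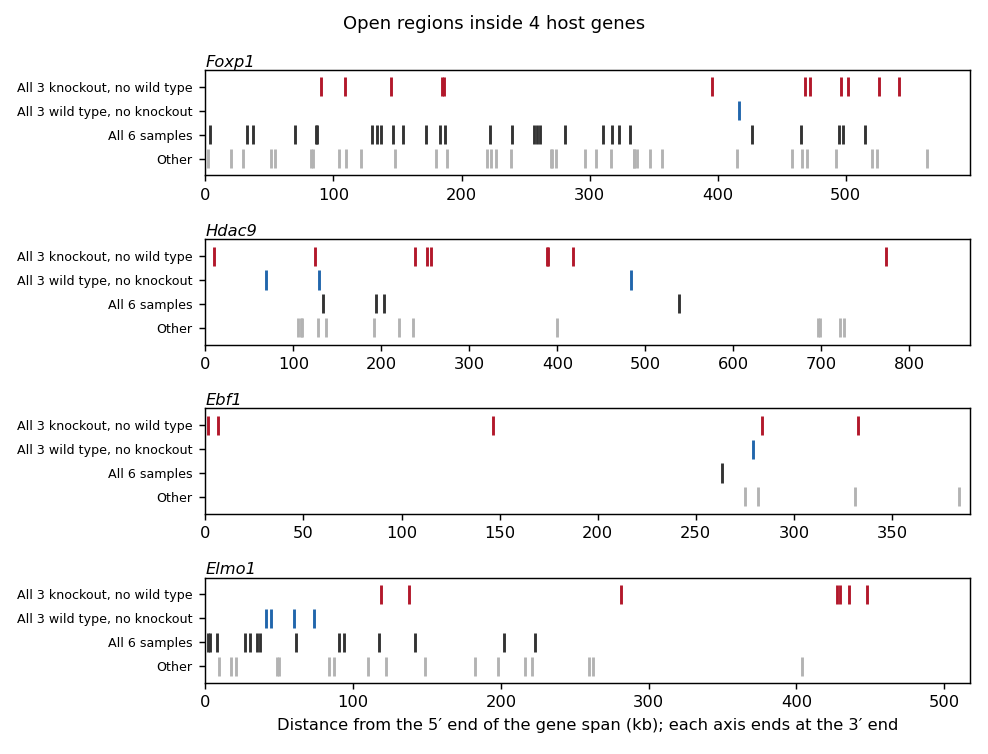
Regions inside Foxp1, Hdac9, Ebf1 and Elmo1 by distance in kb from the 5′ end of the gene (horizontal axis, each to the length of its gene), in rows by which samples had a peak. Members (red) are 12, 9, 5 and 7 in the 4 genes, and lost regions (blue) 1, 3, 1 and 4.

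In the knockout samples, regions that the genotypes share were also wider in host genes than in other genes. Of the 11376 regions inside genes with a peak in all 6 samples, 3159 lay in genes that hold a member. Their median width was 480, 474 and 461 bp in wild-type samples 1, 2 and 3 and 471, 509 and 464 bp in the knockout samples. In the 8217 such regions of other genes it was 501, 485 and 480 bp in wild type and 435, 466 and 421 bp in knockout. Host-gene regions were thus narrower than the rest in every wild-type sample and wider in every knockout sample, with a ratio of 0.965 ± 0.0105 (SD, n = 3) and 1.09 ± 0.00969 (n = 3). The host genes were found through the same contrast, so this has no test. Among shared regions more than 10 kb from every member the difference in ratio was 0.0807 in place of 0.127, and the groups still did not overlap.

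**Figure D4:**
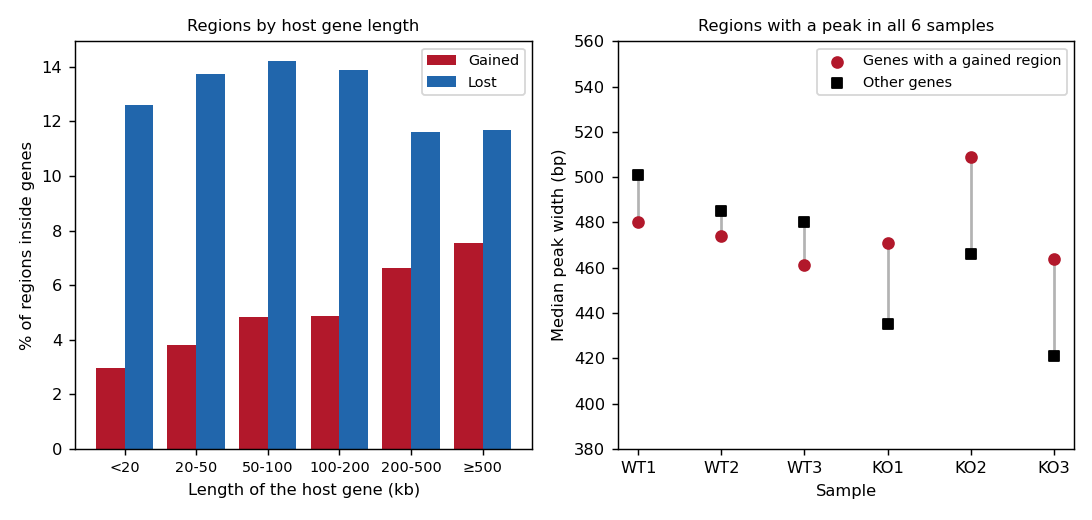
Left, gained and lost regions as a percentage of all regions inside genes, by host gene length in kb; gained regions go from 2.97% to 7.53%. Right, median width in bp, per sample, of regions found in all 6 samples, in genes with a gained region (circles) and other genes (squares); the axis does not start at 0, and circles are above squares in the 3 knockout samples alone.

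Among 19 gene lists, members made up more than the background share of 4.91% in 8, and B lineage genes had the largest share. The lists were chosen with earlier results of these data known, and no list was tested. The intervals of the lists cover counting over regions only, treat regions of the same gene as separate and are not corrected for 19 lists. Whether an interval includes 4.91% is therefore no test of that list. In B lineage genes 31 of 225 regions inside were members (13.8%, 95% Clopper-Pearson interval 9.56 to 19.0) and 8 were lost (3.56%, against 13.3% over all regions inside genes), in 10 of 25 genes. Foxp1 alone held 12 of the 31, and without it 19 of 147 remained (12.9%). The median of the members' mean widths was 411 bp in the list and 394.5 bp over all members.

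Ebf1, a transcription factor that sets B cell identity, held 5 of 11 regions, the widest with 754, 944 and 940 bp at chr11:44764435-44765414. It had 1 lost and 1 shared region. Prkcb, a kinase of the B cell receptor pathway, held 3 of 22, and Bank1, an adaptor of that pathway, 2 of 11. The B lineage list also had single members in Pax5 (507, 612 and 668 bp at chr4:44705810-44706477), Blk and Cd79a. Peaks in or within 1 kb of the B lineage genes numbered 153 to 169 in wild-type and 189 to 217 in knockout samples. Without the members, which add peaks to knockout samples alone, the knockout counts were 158 to 186 and overlapped those of wild type. Without all gained and lost regions the counts were 145 to 161 and 150 to 178. The knockout lists were the shorter ones, so an equal count is a larger share of a knockout list. Over all peaks, members included, the share was 0.281% ± 0.0146 (SD, n = 3) in wild type and 0.433% ± 0.0156 (n = 3) in knockout. Through the rule, members raise the knockout share alone.

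T and NK lineage genes held 13 of 127 (10.2%, interval 5.56 to 16.9), with 4 of 17 in Inpp4b, a phosphoinositide phosphatase, 3 of 17 in the kinase gene Fyn, 2 of 15 in Prkcq and 2 of 2 in Camk4. Without Inpp4b, 9 of 110 remained (8.18%). The widest in Inpp4b, by mean, had 573, 522 and 669 bp (chr8:81353294-81354070). Dendritic cell genes held 10 of 127 (7.87%, 3.84 to 14.0), with 4 of 31 in Tcf4, the factor of plasmacytoid dendritic cells, 3 of 8 in Ciita, the activator of MHC class II genes, and 1 each in Zbtb46 and Irf8. Without knockout sample 1 the dendritic cell count was 16 of 126 (12.7%), and with the widest 50% of peaks it was 3 of 65 (4.62%), below that setting's background of 5.27%. Peaks outside the members, a cut that removes knockout peaks alone, numbered 104 to 108 in wild-type and 76 to 98 in knockout samples at T and NK genes. At dendritic cell genes they numbered 104 to 105 and 83 to 90. Without all gained and lost regions the counts were 94 to 98 and 76 to 98, and 94 to 95 and 83 to 90. The wild-type lists were the longer ones. As a mean share of all peaks, members included, T and NK genes had 0.183% in wild type and 0.219% in knockout. Dendritic cell genes had 0.182% and 0.208%. Members count in knockout samples alone, so the rule itself raises the knockout shares, and shares without them were not computed. In granulocyte and monocyte genes the 2 members of 28 regions were both in Itgam, which encodes CD11b.

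Erythroid, platelet and stem cell lists were below the background share. GATA and erythroid genes held 4 of 115 (3.48%, interval 0.956 to 8.67) and had 37 lost (32.2%). Of the 4, 3 lay in Bcl2l1, encoding the survival protein BCL-XL, at mean widths of 281 to 342 bp, and 1 in Sptb. Megakaryocyte genes held 2 of 56, in Fli1 and Itgb3. Stem and progenitor genes held 5 of 148 (3.38%), 2 in Eya1 and 1 each in Angpt1, Mllt3 and Ptprc. Mast cell and basophil genes held 0 of 27 (upper bound 12.8%), and stroma and endothelium 1 of 40, in Adipoq, or 2 of 39 without wild-type sample 1.

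Markers of other lineages differed between the groups beside these counts. Peaks in or within 1 kb of the 29 GATA and erythroid genes numbered 125 to 140 in wild type and 51 to 58 in knockout samples, with peaks at all 29 genes in wild type and at 18 to 20 in each knockout sample. Without all gained and lost regions the counts were 66 to 85 and 47 to 54. Gata1, Hba-a1, Alas2 and Slc4a1 had none there in any knockout sample. Conversely Cd22 and Vpreb1 had none in any wild-type sample, and each of the 25 B lineage genes had one in at least 1 knockout sample. In bulk samples, a change in the share of cells of a type and a change in accessibility per cell cannot be told apart. The part of cell makeup in the gained regions was not tested.

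**Figure D5:**
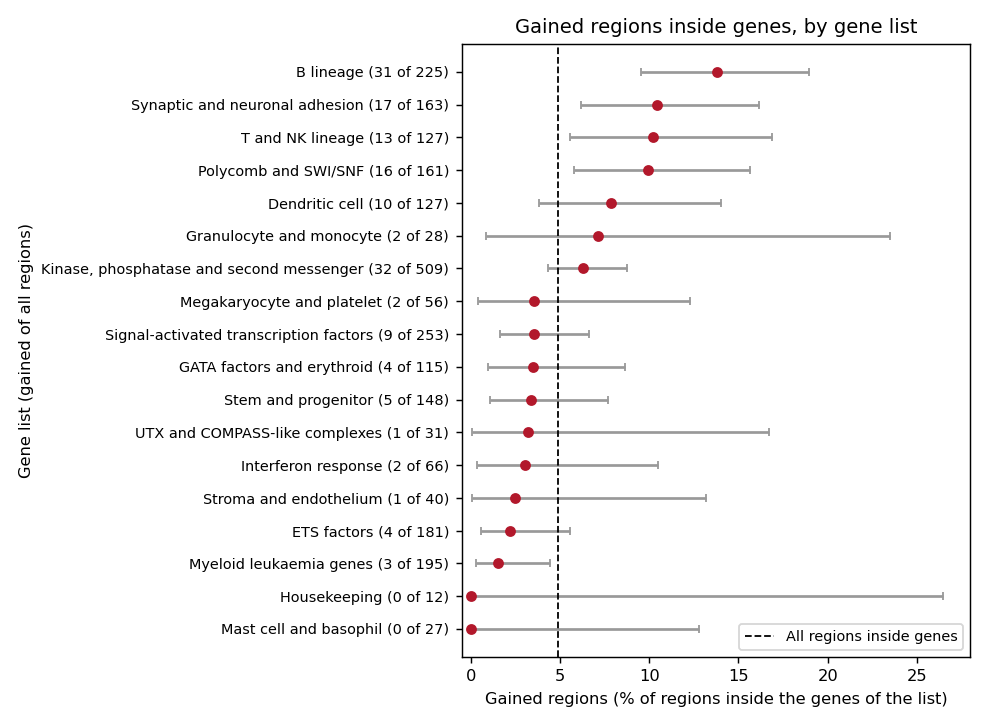
Members as a percentage of the regions inside the genes of 18 of the 19 lists (points; bars are 95% Clopper-Pearson intervals over regions), with the share over all regions inside genes as a dashed line. B lineage genes are highest at 13.8%, and 11 lists lie below the line.

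Among chromatin regulators, the Polycomb and SWI/SNF list, which also holds Chd4, Hdac4 and Hdac9, had 16 of 161 (9.94%, interval 5.79 to 15.6). Hdac9 held 9 of them, and without it 7 of 132 remained (5.30%). The others were in Arid1b, a SWI/SNF subunit (3 of 55), Smarca4, its ATPase BRG1 (2 of 5), Hdac4 and Kdm2b. UTX and COMPASS-like genes held 1 of 31, in Kdm6a itself, with peaks of 659, 668 and 515 bp, and 2 of 32 without knockout sample 3. The deleted part of Kdm6a is not given in the labels, so that region does not check the genotype. ETS factor genes held 4 of 181 (2.21%, 0.605 to 5.56), 2 in Ets1 with 412, 295 and 199 bp (chr9:32660403-32660890) and 295, 463 and 366 bp (chr9:32726608-32727070), and 1 each in Fli1 and Spib. Without knockout sample 1, the ETS count was 9 of 181 (4.97%), against a background of 7.10%. With the widest 50% of peaks it was 6 of 99 (6.06%), above that setting's background of 5.27%. The width of 199 bp in Ets1 is the smallest of any member in knockout sample 3.

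Signalling lists lay close to the background. Kinase, phosphatase and second messenger genes held 32 of 509 (6.29%, 4.34 to 8.76), with 8 in Camk2d, 5 of 65 in the phosphodiesterase gene Pde4d, 5 of 27 in the calcium channel gene Itpr2 and 5 of 20 in Prkca. Without Camk2d the share was 5.03%. Signal-activated transcription factors held 9 of 253 (3.56%), among them 2 in Nr3c1, the glucocorticoid receptor, and 1 each in Mef2c and Smad3. Without knockout sample 1 this list held 16 of 250, and with the widest 50% of peaks 1 of 132. Myeloid leukaemia genes held 3 of 195 (1.54%), 2 in Dnmt3a and 1 in Cdk6, and 5 of 194 (2.58%) without knockout sample 1 or without sample 3. Interferon response genes held 2 of 66, in Irf2 and Ifnar2, and housekeeping genes 0 of 12 (upper bound 26.5%).

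Synaptic and neuronal adhesion genes, which are very long, held 17 of 163 (10.4%, interval 6.19 to 16.2), among them 5 in the scaffold gene Magi2, 3 in Tenm4 and 2 in Sema5a. The list's genes with a region inside had a median length of 1221 kb. The members in genes of 500 kb or more were 7.53% of the regions there, which lies within this interval. The part of gene length in the share of this list was not tested.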

How the data were processed

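Accessibility was measured by ATAC-seq in 6 samples, 3 wild type and 3 Utx knockout. The authors deposited 1 peak list per sample that gives positions alone, without score, summit or read count, so depth is unknown and presence and width were the measurements. The peak caller MACS2 and build mm10 are named, without version, in the submitters' processing notes. For the aligner, filters, insertion shift and duplicate handling, details were not given in the sources used here. The label of each list carries a p-value threshold set by the authors.

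Peaks sharing at least 1 bp were merged. A sample had a region if any of its peaks overlapped it. Genes were the 21887 RefSeq protein-coding genes of GRCm38.p6 (the assembly of mm10). Strand came from the promoter table, for 17492 of them. Width is the summed length of a sample's peaks in a region. Members and gene lists were chosen with earlier results of these data known. Of 437 listed genes, Mx1 and Mx2 were unmatched. Named genes were the 10 widest members, the 10 genes with most members, up to 4 genes per list with most members, and the 3 regions nearest each side of the 1 kb limit. Some genes and a list that these rules name are not reported here. Others are examples chosen after their values were seen. The share of peaks inside genes was compared by a two-sided exact permutation test over samples. The labels do not say that samples were separate animals, so its p measures only the spread between these samples. No genome sequence was used, so printed sequences and motif searches were limited to promoter windows, in place of the planned windows around member centres. The rule was tested on simulated peaks. Work was done in Python 3.11.15 with pandas 2.3.3, numpy 2.4.6 and scipy 1.17.1.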

Additional observations from a re-analysis of the deposited data

How the results depend on the processing

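The number of members was 1718, 830 with the widest 50% of each sample's peaks, 2738 when 2 of 3 knockout samples sufficed, and 1839 to 2458 without 1 sample, the highest without knockout sample 1. Other settings gave 1462 to 2224. Members as a share of regions inside genes (4.91%) were 5.35% to 7.10% without 1 sample, 5.27% in the widest 50%, 7.72% with lists cut to equal length, 5.86% when peaks had to cover 50% of a region and 4.18% with no wild-type peak within 1 kb. The mean member width was 637 bp with the widest 50% of peaks and 444 bp with 50% coverage, in place of 392 bp. The difference in width ratio at shared regions of host genes (0.127) was 0.116 to 0.132 without 1 sample, 0.110 with lists of equal length, 0.0807 away from members and 0.164 in genes with 2 or more members. The settings for this last difference were chosen after seeing the data, and the groups did not overlap in any of them. In the 12 settings run for gene lists, 8 or 9 of 19 lists exceeded the background share. B lineage, T and NK, Polycomb and SWI/SNF, synaptic and kinase lists did so in 12 of 12, and GATA and erythroid genes in 0. B lineage genes held 32 to 37 members without 1 sample and 20 to 41 in the other settings. The lowest B lineage count, 20 of 109 (18.3%), came with the widest 50% of peaks, where T and NK genes had a larger share (14 of 70, 20%). The lowest B lineage share, 22 of 225 (9.78%), came with no wild-type peak within 1 kb.

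With the replicate block, labels were permuted within the shared replicate numbers. The difference in the share of peaks inside genes, with member peaks left out, was -6.29 percentage points (exact permutation p = 0.25, the smallest possible). The members were not chosen again for each permutation, so this p is no test of that difference. Widths of same-numbered samples deviated together by r = -0.030, 0.025 and 0.010 across shared regions. For pairs with different numbers r ran from -0.076 to 0.058. The labels do not say whether a number marks a shared litter, batch or day, and these values cannot decide it. That difference was -7.88 to -5.40 under the planned settings, -4.00 over all peaks and -1.40 with lost regions left out too, the last pair added after seeing the data. A planned search of the members' own sequence, with its 200 bp alternative, could not be made without the genome's letters.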
